A study of Homo sapiens with 12 samples.

Results

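The miRNA genes MIR148A, MIR148B and MIR152, whose main mature products share a seed and have been reported to repress MITF in melanoma, were followed across line and treatment. They were chosen by name: the Ensembl identifiers of the Small-RNAseq rows were given GENCODE names, and the rows so named are 3 of 1881 miRNA precursors. A375 is a human melanoma cell line sensitive to dabrafenib, an inhibitor of the BRAF kinase, and A375-BIR is its resistant counterpart, obtained by keeping A375 in rising amounts of the drug. The sources used here do not say whether A375-BIR is a single clone. Both lines were analysed after 48 h in 0.1% DMSO, the vehicle, and after 48 h in 200 nM dabrafenib, with 3 libraries in each of the 4 groups and 12 in all. The comparisons ask how the precursors differ between the sensitive and the resistant line and whether dabrafenib changes them.

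MicroRNAs guide a silencing complex to messenger RNAs, mostly by pairing of the seed near their 5′ end with sites in the 3′ untranslated region (UTR). A site that pairs with a seed can thus be used by any miRNA that carries it. MITF, the transcription factor that governs melanocyte identity and pigmentation, is an important determinant of cell state in melanoma, and its transcript carries seed matches for this family. The family is also known for repressing DNMT1, the maintenance DNA methyltransferase.

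The mature sequences are shown because the seed is what makes the members a family and because the bases outside it tell their reads apart. They are written 5′ to 3′, from RefSeq on GRCh38.p14, with the seed (bases 2 to 8) in capitals.
hsa-miR-148a-3p: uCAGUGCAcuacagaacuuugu
hsa-miR-148b-3p: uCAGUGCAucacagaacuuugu
hsa-miR-152-3p: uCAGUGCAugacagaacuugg
The seed was identical in all 3 and was held by exactly these 3 mature miRNAs of the RefSeq table. Counted from the 5′ end, miR-148a-3p differed from miR-148b-3p by C9U and U10C, with 20 of 22 bases identical. It differed from miR-152-3p by C9U, U10G and U20G over the 21 bases that both have. The substitutions from miR-148b-3p to miR-152-3p were C10G and U20G. The deposited expected counts of each member were whole numbers in 12 of 12 libraries, in files that give up to 2 decimals and with no tolerance applied, so no fractional share of a read is seen in them. The values belong to the precursor, and its 5p and 3p arms cannot be told apart in them.

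The 3 genes lie on different chromosomes (hg38, GENCODE release 44). MIR148A (ENSG00000199085.3) is on the minus strand at chr7:25949919-25949986, inside an intron of 1 of the 3 transcripts of the long non-coding RNA gene ENSG00000270933. MIR148B (ENSG00000199122.3) is on the plus strand at chr12:54337216-54337314, and 17 of the 18 COPZ1 transcripts span it, each with an intron. MIR152 (ENSG00000207947.3) is on the minus strand at chr17:48037161-48037247, in an intron of all 3 of the 10 COPZ2 transcripts that span it. COPZ1 and COPZ2 are paralogs and encode zeta subunits of the COPI vesicle coat. No other annotated miRNA gene lay nearer than 105.7 kb to any member, so none of them belongs to a tight miRNA cluster.

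Seed matches in the targets named above were read from the canonical transcripts, on the transcript strand. The seed pairs with TGCACTG, called a 7mer-m8 match, and pairing of bases 2 to 7 with an A opposite base 1 requires GCACTGA, called a 7mer-A1 match. The 3′ UTR of MITF, 3084 bases long, held 2 of each. They are printed with the match in capitals to show the sites that the seed of all 3 members can pair with. Pairing outside the seed, where the members differ, was not examined.
MITF 7mer-m8, chr3:69965249-69965269, plus strand: cgaatcctcccTGCACTGcat
MITF 7mer-A1, chr3:69966029-69966052, plus strand: gtaaaatattgaggaGCACTGAaa
MITF 7mer-A1, chr3:69966852-69966875, plus strand: gtcttttttggactaGCACTGAct
MITF 7mer-m8, chr3:69968077-69968100, plus strand: atatttttgaaaaaTGCACTGgga
DNMT1 8mer, chr19:10133610-10133633, minus strand: aggaatccccaacaTGCACTGAtg
In the first 3084 bases of the 3406 canonical 3′ UTRs that are at least as long, TGCACTG occurred at least once in 25.6% and GCACTGA in 19.5%. The share of UTRs with 2 of either, as in MITF, was not counted. The full 8mer TGCACTGA, which contains both, was not found in MITF and occurred in 7.96% of those UTRs. DNMT1 held this 8mer in a 3′ UTR of 321 bases, and 1.01% of 15183 UTRs held it in their first 321 bases. A match is a description of the sequence, and neither MITF nor DNMT1 was measured here.

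The total of expected counts per library set the precision. In DMSO its median was 86898 for A375, with a range of 77264 to 121802, and 120625 for A375-BIR, with a range of 106427 to 122792. In dabrafenib it was lower, 47507 for A375 (36955 to 51532) and 47607 for A375-BIR (35070 to 59899). The members together took between 0.0863% and 0.153% of a library. The counts of MIR148A ran from 7 to 68, those of MIR148B from 11 to 138 and those of MIR152 from 6 to 46. For the lowest of these, the exact Poisson 95% interval was 2.81 to 14.4 for the 7 counts of MIR148A and 2.20 to 13.1 for the 6 counts of MIR152, and it covers counting error only, since the libraries were amplified and no molecular identifiers are described for them. All 3 members were among the 175 precursors that had enough counts to be tested.

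The libraries were not alike in every respect. In A375-BIR in DMSO, replicate 3 stood apart from replicates 1 and 2, with a chi-square per degree of freedom of 29.4 and 32.1 against 2.50 between these replicates, and the values of the members are also given without it where they rest on it. By the correlation of log2 CPM the lowest pair of a group was A375-BIR replicates 1 and 3 in dabrafenib, at 0.924. Replicates 1 and 2 of that group gave 0.954, and A375-BIR replicate 3 in DMSO gave 0.968 and 0.97. Precursors that have 18 or more consecutive bases in common with 45S pre-rRNA held 14.4% to 26.3% of the counts in the dabrafenib libraries and 2.65% to 5.59% in the DMSO libraries. The TMM scaling factor, which corrects a library total for differences in composition, was 0.693 to 0.822 in A375 in dabrafenib and 1.04 to 1.19 in the other groups. It did not follow the rRNA-like share alone. A375-BIR in dabrafenib, with 14.4% to 16.9% of such counts, had factors of 1.05 to 1.12. A list of 15 miRNAs typical of the melanocyte lineage served to check the label of the cells. Its summed share of the counts was 0.347%, 0.324% and 0.322% in A375 in DMSO and 0.636%, 0.743% and 0.544% in A375 in dabrafenib (replicates 1, 2 and 3). In A375-BIR it was 0.0225%, 0.0199% and 0.0228% in DMSO and 0.0570%, 0.0351% and 0.0735% in dabrafenib, lower than in any A375 library. MIR204 was the most abundant of the list in each library, MIR211 had at most 9 counts, and MIR514A1, MIR514A2, MIR514A3 and MIR514B were at 0. In DMSO MIR211 had 0, 4 and 3 counts in A375 and 1, 3 and 4 in A375-BIR. In dabrafenib it had 5, 4 and 9 in A375 and 3, 4 and 4 in A375-BIR. These counts are too low to compare, so the lower sum in A375-BIR is not shown for MIR211. A list of 15 miRNAs typical of liver, blood, muscle, neurons and epithelium summed to at most 13.5 counts in a library, with MIR142 reaching 7 counts and MIR122, MIR451A, MIR124-1, MIR124-2, MIR124-3 and MIR429 at 0.

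MIR148A was the member that separated the lines. In DMSO its level in A375 was 575, 516 and 578 CPM (counts scaled to library size, with TMM) in replicates 1, 2 and 3. In A375-BIR in DMSO it was 109, 118 and 152 CPM. In dabrafenib it was 548, 621 and 1030 CPM in A375 and 273.1, 120.3 and 142 CPM in A375-BIR. All 6 A375 libraries were above all 6 A375-BIR libraries, the nearest being A375 replicate 2 in DMSO and A375-BIR replicate 1 in dabrafenib. The group means (± SD, n = 3) ran from 733 ± 260 CPM in A375 in dabrafenib through 556 ± 34.8 CPM in A375 in DMSO and 178 ± 82.8 CPM in A375-BIR in dabrafenib to 126 ± 22.9 CPM in A375-BIR in DMSO. The groups of the same line overlapped in this order, and the gap lay between the lines.

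**Figure D1:**
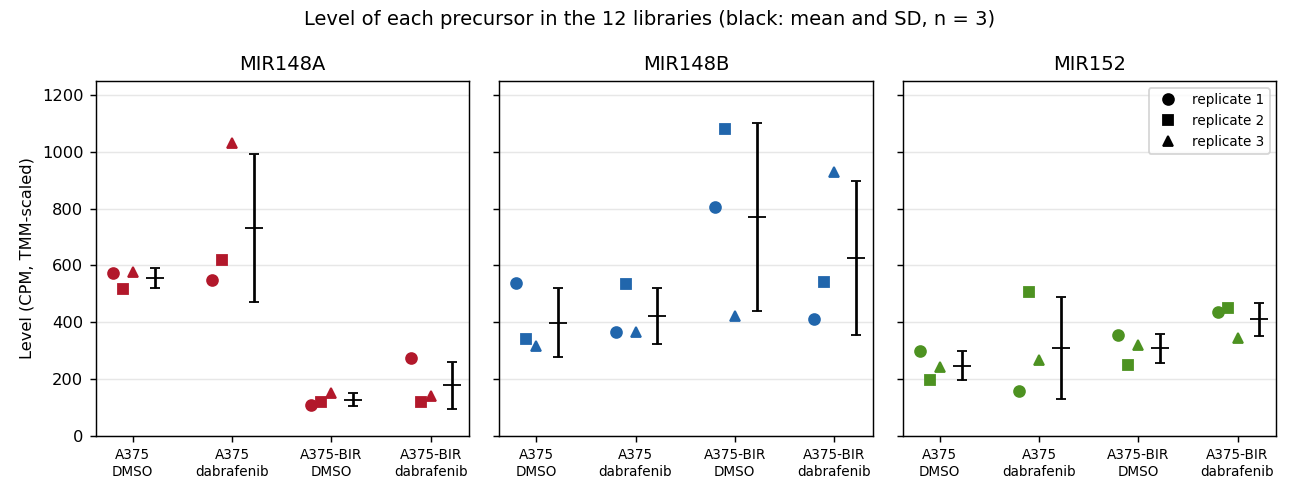
Level of MIR148A, MIR148B and MIR152 in each library, in CPM after TMM scaling, by line and treatment. Symbols are replicates 1 to 3, and the black bar is the mean with its SD (n = 3). The 6 A375 libraries lie above the 6 A375-BIR libraries for MIR148A, while the lines overlap for MIR148B and MIR152.

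Over both treatments MIR148A was up-regulated in A375 with respect to A375-BIR by 4.30-fold (95% interval 3.10 to 5.98), or 2.10 on the log2 scale (standard error 0.22, FDR = 1.99e-06, edgeR quasi-likelihood test, Benjamini-Hochberg over 175 precursors). With TMM the difference was close in both treatments. It was 2.11 on the log2 scale in DMSO (standard error 0.28, FDR = 3.47e-05) and 2.10 in dabrafenib (standard error 0.34, FDR = 2.06e-04). With total counts it was 2.10 in DMSO and 1.63 in dabrafenib, where the median of all tested precursors was -0.16 and -0.50. Among the log2 fold changes of all tested precursors MIR148A stood at percentile 95.4 over both treatments, 96.0 for DMSO alone and 93.1 for dabrafenib alone. An exact two-sided permutation test that exchanged labels of line but not of treatment gave p = 0.005, unadjusted, which is the smallest value that its 400 arrangements allow. It is among 12 such tests made here, 6 with TMM and 6 with total counts. Without A375-BIR replicate 3 in DMSO the log2 fold change in DMSO was 2.29 (FDR = 7.43e-05), and over all alternatives tried in DMSO the FDR ran from 7.25e-12 to 3.25e-04. miR-148a also stands on the list of differing miRNAs that the study chose from these same libraries, so its direction is not independent evidence for that list. Of the 15 miRNAs of the melanocyte-lineage list 4 were tested, MIR204 and the copies MIR509-1, MIR509-2 and MIR509-3, which share reads. All 4 were higher in A375 over both treatments, like MIR148A and 45 of the 175 tested precursors. The other members, MIR211 among them, had too few counts to be tested. The part of the melanocyte lineage in the difference of MIR148A was not tested. In bulk RNA, fewer cells with the miRNA and less of it per cell cannot be told apart.

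MIR148B lay on the other side. In DMSO its level was 539, 342 and 315 CPM in A375 and 806, 1082 and 422 CPM in A375-BIR (replicates 1, 2 and 3). In dabrafenib it was 365, 536 and 366 CPM in A375 and 410, 542 and 930 CPM in A375-BIR. The lines overlapped in both treatments, and the high values were those of A375-BIR replicates 1 and 2 in DMSO and replicate 3 in dabrafenib. The means were 770 ± 332 CPM in A375-BIR in DMSO, 627 ± 271 CPM in A375-BIR in dabrafenib, 422 ± 98.6 CPM in A375 in dabrafenib and 399 ± 122 CPM in A375 in DMSO (SD, n = 3 each), and neighbours in this order had overlapping libraries.

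MIR148B was down-regulated in A375 over both treatments, at -0.77 on the log2 scale (standard error 0.27, 95% interval -1.36 to -0.18, FDR = 0.0255, edgeR). In DMSO it was -0.96 (standard error 0.35, FDR = 0.0336). In dabrafenib it was -0.58 and did not pass the threshold of 0.05 (standard error 0.42, FDR = 0.292), but the difference in response between the lines, 0.38 (standard error 0.55, FDR = 0.793), gives no ground to hold the treatments apart. Exact permutation of the line labels gave p = 0.05, unadjusted. Without A375-BIR replicate 3 in dabrafenib the value in dabrafenib was -0.20 and the difference in response 0.76, which was 0.044 without A375-BIR replicate 2 in DMSO. Over both treatments the call was lost with DESeq2's size factors (-0.64, FDR = 0.0787), upper-quartile scaling (-0.68) and DESeq2's test (-0.68). It was also lost without A375 replicate 2 (-0.72) or 3 (-0.70) in DMSO, A375 replicate 1 (-0.76) or 3 (-0.73) in dabrafenib, A375-BIR replicate 2 in DMSO (-0.60) or A375-BIR replicate 3 in dabrafenib (-0.58). In DMSO the call was lost with the same settings (-0.77, -0.71 and -0.80) and with only the libraries compared. It was lost there too without A375 replicate 2 (-0.85) or 3 (-0.82) in DMSO, A375 replicate 1 in dabrafenib (-0.96) or A375-BIR replicate 1 (-0.92) or 2 (-0.62) in DMSO, whereas without A375-BIR replicate 3 in DMSO, the library that stood apart by chi-square, the value was -1.25 (FDR = 0.00523). The FDR of MIR148B ran over all alternatives from 1.34e-04 to 0.0929 over both treatments and from 0.00195 to 0.177 in DMSO.

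MIR152, the member with the fewest counts, differed least between the lines. In DMSO its level was 299, 197 and 242 CPM in A375 and 353, 251 and 318 CPM in A375-BIR (replicates 1, 2 and 3). In dabrafenib it was 156, 508 and 266 CPM in A375 and 437, 451 and 344 CPM in A375-BIR. The lines overlapped in both treatments, and A375 replicate 2 in dabrafenib was the highest of all 12 libraries. In DMSO each A375 library was lower than the A375-BIR library of the same replicate number. With this number as a block the call of MIR152 did not change. The means were 411 ± 58.3 CPM in A375-BIR in dabrafenib, 310 ± 180 CPM in A375 in dabrafenib, 308 ± 52.0 CPM in A375-BIR in DMSO and 246 ± 51.1 CPM in A375 in DMSO (SD, n = 3 each). The log2 fold change between the lines was -0.37 over both treatments (standard error 0.24, 95% interval -0.88 to 0.13, FDR = 0.193, edgeR), -0.34 for the DMSO libraries (FDR = 0.376) and -0.41 for those in dabrafenib (FDR = 0.395). The exact permutation of line labels gave p = 0.125, unadjusted. In DMSO it was -0.18 without A375 replicate 2 in DMSO and -0.068 with upper-quartile scaling. Without A375 replicate 2 in dabrafenib it passed over both treatments (-0.66, FDR = 0.0200) and in dabrafenib (-0.99, FDR = 0.0451), as it did when libraries were scaled by their total counts (-0.63 and -0.91). Over all alternatives its FDR ran from 0.0200 to 0.438 over both treatments and from 0.0442 to 0.822 in dabrafenib. Total counts moved the median of all tested precursors in dabrafenib from -0.03 to -0.50, and measured from that median MIR152 stood at -0.38 with TMM and -0.41 with total counts. Subtracting the median removes what a scaling adds to all precursors, so these values cannot tell which scaling holds.

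The members are read against all tested precursors. Between the lines over both treatments 60.0% of the 175 precursors passed the threshold, as did 2 of the 3 members, MIR148A and MIR148B. In DMSO 46.3% passed, with the same 2 members, and in dabrafenib 46.3% passed, with MIR148A. These shares are near those of the members, so having passed is not particular to them. The libraries of the lines did not overlap for 29.1% of the precursors over both treatments, for 61.1% in DMSO and for 50.3% in dabrafenib, and of the members MIR148A alone was among them in each case. Of the 105 precursors that passed over both treatments 45 were higher and 60 lower in A375. The split depended on the scaling, with 54 higher and 47 lower under DESeq2's size factors, 35 and 72 under total counts and 54 and 48 under upper-quartile scaling. A scaling moves all precursors nearly alike, so differences from their median hardly change with it by construction and do not test it. They give the place of the members among the precursors. Over both treatments the median log2 fold change was -0.11 with TMM and -0.35 with total counts, and MIR148A lay above it by 2.22 with TMM and 2.21 with total counts. MIR148B stood at -0.66 from the median under both scalings.

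**Figure D2:**
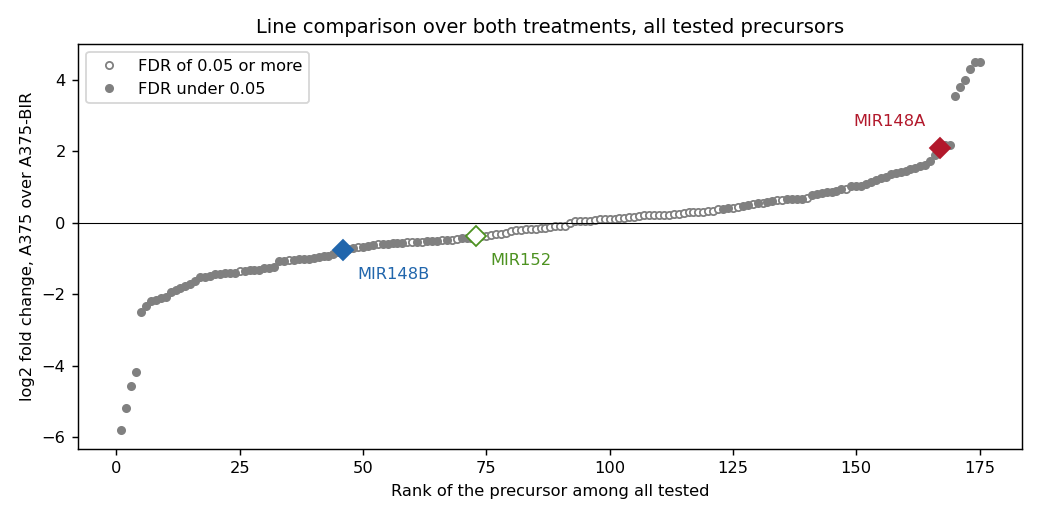
Log2 fold change of A375 over A375-BIR over both treatments for the 175 tested precursors, in rising order. Filled points have an FDR under 0.05, and diamonds mark the members. MIR148A, at 2.10, is near the upper end, MIR148B, at -0.77, is in the lower part and MIR152, at -0.37, did not pass the threshold.

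Dabrafenib did not move any member past the threshold. In A375 the log2 fold change of dabrafenib over DMSO was 0.38 for MIR148A (95% interval -0.20 to 0.97, FDR = 0.343). It was 0.10 for MIR148B (95% interval -0.80 to 1.00, FDR = 0.866) and 0.35 for MIR152 (95% interval -0.43 to 1.12, FDR = 0.506). All 3 intervals included 0. In A375-BIR it was 0.39 for MIR148A (95% interval -0.39 to 1.18, FDR = 0.514), -0.28 for MIR148B (95% interval -1.04 to 0.48, FDR = 0.647) and 0.42 for MIR152 (95% interval -0.25 to 1.09, FDR = 0.342). Single libraries weighed on these values. MIR148A was at 0.072 in A375 without A375 replicate 3 in dabrafenib and at 0.027 in A375-BIR without A375-BIR replicate 1 in dabrafenib. With each library left out in turn MIR148B in A375-BIR ran from -0.66 to 0.058, so its direction there was not fixed. By edgeR 0 of 3 members passed in either line, 0 had an unadjusted p under 0.05, and DESeq2 gave 0 by both measures. Of all tested precursors 25.1% passed in A375 and 20.6% in A375-BIR. The latter share, from 36 calls, was unstable, with 19 calls using only the libraries compared and 20 to 46 with libraries left out. The treated and untreated libraries did not overlap for 42.3% of the precursors in A375 and 36.6% in A375-BIR, and they overlapped for each of the 3 members in both lines. Exact permutation tests that exchanged the treatment labels within each line gave p = 0.13 for MIR148A, 0.79 for MIR148B and 0.285 for MIR152, unadjusted.

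The direction in A375 depended on the processing. With a filter of 1 CPM MIR148A was at -0.026. Without A375 replicate 2 (-0.0052) or 3 (-0.034) in DMSO or A375 replicate 2 in dabrafenib (-0.11) MIR148B turned negative, as did MIR152 without the last of these (-0.23). None of these values passed the threshold. With total counts the values were -0.11, -0.41 and -0.17 for MIR148A, MIR148B and MIR152, while the median of all tested precursors moved from 0.14 to -0.36. Measured from that median, MIR148A stood at 0.24 with TMM and 0.24 with total counts, MIR148B at -0.04 and -0.05 and MIR152 at 0.20 and 0.18. Here too the near equality follows from subtracting the median and does not settle the direction. Without the rRNA-like rows the values were 0.25, -0.04 and 0.21, and the line difference of MIR148A over both treatments was 2.03. For the difference in response, which compares the effect of dabrafenib in A375 with that in A375-BIR, 3.43% of the precursors passed and 0 of 3 members did, also before adjustment and with DESeq2. It was -0.01 for MIR148A (95% interval -0.82 to 0.79, FDR = 1.00), 0.38 for MIR148B (95% interval -0.80 to 1.56) and -0.08 for MIR152 (95% interval -1.10 to 0.95, FDR = 0.997). Standard errors were derived from the fold change and the test statistic, which is unreliable for values near 0. For MIR148A the error of the difference, 0.374, was hardly above that of the response in A375-BIR alone, 0.366. The error of the response in A375, 0.273, enters the difference too, so the interval of MIR148A is likely too narrow.

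**Figure D3:**
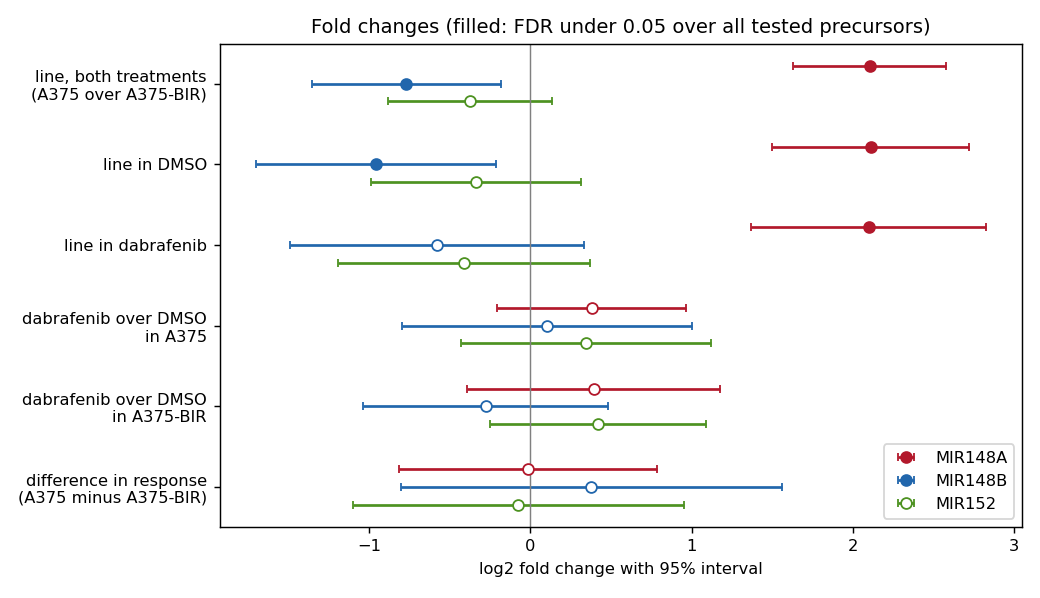
Log2 fold changes of the members with 95% intervals in the 6 comparisons. Filled points have an FDR under 0.05 over the 175 tested precursors. MIR148A is at 2.10 or 2.11 in the line comparisons, MIR148B passes over both treatments and in DMSO, and the intervals of every dabrafenib comparison include 0.

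The composition of the family does not depend on library scaling, because it is a share of the summed counts of the members within a library. In A375 in DMSO MIR148A held 40.7%, 48.9% and 50.9% of the family counts, and in A375 in dabrafenib 51.2%, 37.3% and 62.0% (replicates 1, 2 and 3). In A375-BIR it held 8.57%, 8.11% and 17.1% in DMSO and 24.4%, 10.8% and 10.0% in dabrafenib. The lowest share in A375 was above the highest share in A375-BIR. MIR148B took 32.8% ± 5.19 in A375 and 61.8% ± 13.7 in A375-BIR in DMSO, and 29.5% ± 6.53 and 50.3% ± 14.6 in dabrafenib (SD, n = 3 each). MIR152 took 20.4% ± 1.47 and 26.9% ± 9.22 in DMSO and 20.4% ± 8.80 and 34.6% ± 8.98 in dabrafenib. Divided by precursor length, to which reads of mature miRNAs need not be proportional, the mean share of MIR148A in A375 in DMSO was 54.9% (46.8% undivided) and that of MIR148B in A375-BIR in DMSO 57.1%, each the highest of its group on both scales. The shares of a library add up to its whole family, so the lower share of MIR148A in A375-BIR by itself raises the other shares. Higher shares of MIR148B and MIR152 there are thus not separate evidence of higher levels. No test was made of these shares.

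**Figure D4:**
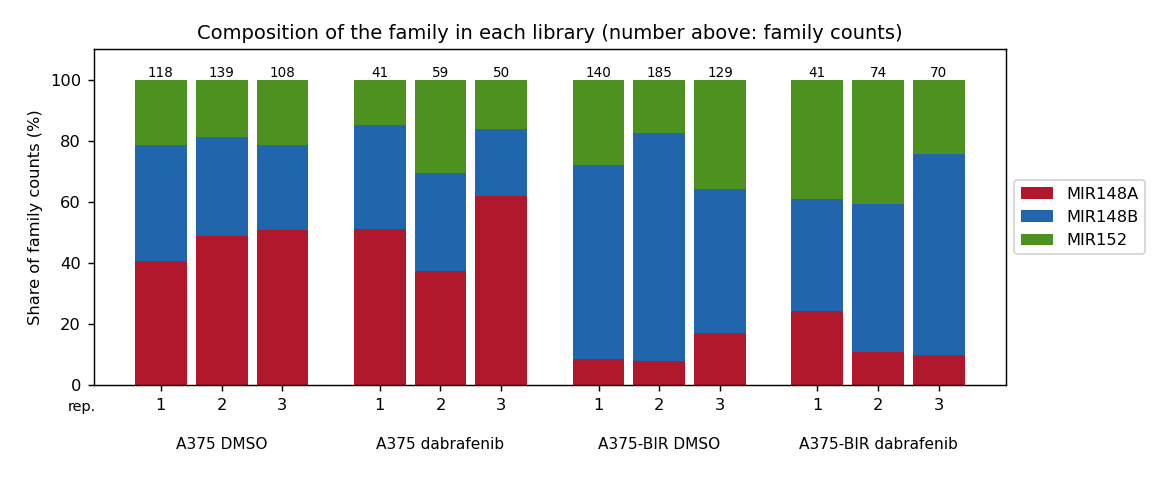
Share of MIR148A, MIR148B and MIR152 in their summed counts in each library, in %, with the summed counts above each bar. MIR148A makes up 37.3% to 62.0% of the family in the A375 libraries and 8.11% to 24.4% in the A375-BIR libraries.

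The summed counts of the members describe the family as a whole. They summed to 1413, 1055 and 1136 CPM in A375 and to 1268, 1451 and 892 CPM in A375-BIR in DMSO (replicates 1, 2 and 3), with overlapping ranges. In DMSO the mean was 1201 ± 188 CPM for A375 and 1204 ± 285 CPM for A375-BIR, and in dabrafenib 1465 ± 343 and 1216 ± 173 CPM (SD, n = 3 each). As a share of all counts, with no TMM factor, the sum was 0.130% ± 0.0203 in A375 in DMSO, 0.112% ± 0.0244 in A375 in dabrafenib, 0.130% ± 0.0241 in A375-BIR in DMSO and 0.129% ± 0.0157 in A375-BIR in dabrafenib. In dabrafenib the mean was thus higher in A375 with TMM and lower without it. The sum is one of precursor counts, which may hold reads of the 5p arms with their other seeds, and no test was made of it.

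Across the 12 libraries the log2 CPM of MIR148A and MIR148B had a Pearson correlation of -0.701, those of MIR148A and MIR152 of -0.343 and those of MIR148B and MIR152 of 0.317. These are descriptions over libraries that share line, treatment and depth. Among 172 other tested precursors those most like MIR148A were MIR509-3 (0.971) and MIR509-1 and MIR509-2 (0.967 each), copies that share reads and therefore count as a single pattern. They had 1.33 to 3 expected counts in each A375-BIR library, at or under the floor of 3 counts, and they stand on the list that the study chose from these libraries. Most like MIR148B were MIR598 (0.864), MIR93 (0.855) and MIR29A (0.848), the last 2 also on that list, and most like MIR152 were MIR192 (0.819), MIR99B (0.688) and MIR16-1 (0.682). MIR598 was near the floor in A375, with means of 37.6 CPM in DMSO and 74.8 CPM in dabrafenib. There the floor of 3 counts was 24.6 to 38.8 CPM and 58.2 to 81.2 CPM. With total counts in place of TMM, MIR598 moved to rank 5 for MIR148B and MIR99B to rank 11 for MIR152.

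Of 10 other miRNA genes reported to repress MITF 4 were tested, and MIR155 was on the side of MIR148A and MIR182 on the side of MIR148B. Over both treatments 1 of the 4 was higher in A375 and 3 were lower, of which MIR26A1 and MIR26A2 count as a single pattern, against 45 higher and 60 lower of all 175. MIR155 was higher, at 3.55 (standard error 0.29, FDR = 1.06e-07, edgeR), and MIR182 was lower, at -2.50 (standard error 0.12, FDR = 6.44e-10). Both stand, like miR-148a, on the list that the study chose from these libraries. MIR26A1 and MIR26A2, copies that share reads, were at -0.42 (FDR = 0.0362) and -0.43 (FDR = 0.0334), and these calls were lost with DESeq2's size factors (-0.27 and -0.28), with upper-quartile scaling (-0.30 and -0.31) and with DESeq2's test (-0.30 and -0.31), that of MIR26A1 also with the replicate block (-0.41). They were lost too without 7 and 6 of the 12 libraries taken in turn. Among those 12 fits MIR26A1 kept its call only without A375 replicate 3 in DMSO or in dabrafenib, A375-BIR replicate 1 or 2 in DMSO or A375-BIR replicate 3 in dabrafenib, and MIR26A2 only without these or A375 replicate 1 in dabrafenib. In DMSO and in dabrafenib 1 of 4, MIR155, was higher and 1, MIR182, was lower, where of all 175 tested 28 were higher and 53 lower in DMSO and 42 and 39 in dabrafenib. These 2 splits depended on the scaling. In DMSO it gave 41 and 42 with DESeq2's size factors, 29 and 53 with total counts and 53 and 41 with upper-quartile scaling. In dabrafenib the same scalings gave 45 and 35, 24 and 59, and 38 and 39. The remaining 6 (MIR137, MIR340, MIR101-1, MIR101-2, MIR218-1 and MIR218-2) had under 10 counts in every library.

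With dabrafenib MIR155 in A375-BIR was the only of these to pass, at 1.54 (standard error 0.49, FDR = 0.0395), on 5, 16 and 12 expected counts in DMSO and 1, 23 and 16 in dabrafenib. Of all tested precursors 20.6% passed with dabrafenib in A375-BIR and 25.1% in A375, so 1 of 4 is near that share. MIR155 passed in 10 of 11 other settings, but of the 12 fits without a library it passed in 4, those without A375 replicate 3 in DMSO, A375 replicate 1 in dabrafenib, A375-BIR replicate 2 in DMSO or A375-BIR replicate 1 in dabrafenib. Of the miR-29 genes, known to repress other DNA methyltransferases, 2 of 4 were tested and both were lower in A375 over both treatments, as were 60 of the 175 tested precursors. MIR29A was at -1.49 (FDR = 8.00e-05), and is on the study's list too. MIR29B1 was at -0.62 (FDR = 0.0497), a call kept in 6 of 10 other settings but in only 3 of the 12 fits without a library, those without A375 replicate 2 or 3 in DMSO or A375-BIR replicate 3 in dabrafenib. In DMSO both were lower, though MIR29B1 was not called by DESeq2 (-0.94, FDR = 0.0502, with a range of 9.65e-04 to 0.0502 over the alternatives), and in dabrafenib MIR29A alone was lower. MIR29B2 and MIR29C had under 10 counts in every library.

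The relatives that begin with the family's seed letters shifted by a base show the same comparison for another family. In miR-130b-3p (hsa-miR-130b-3p, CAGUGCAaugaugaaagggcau) the letters of the miR-148 seed, in capitals, occupy bases 1 to 7, so that its own seed is different. In DMSO MIR130B had a level of 628 ± 159 CPM for A375 and 621 ± 267 CPM for A375-BIR (SD, n = 3 each), with overlapping libraries, and did not pass in any of the 6 comparisons. MIR130A, a further member of that family by name, had too few counts to be tested: 0, 0 and 1 in A375 in DMSO, 0 in each A375 library in dabrafenib, and in A375-BIR 11, 12 and 22 in DMSO and 4.67, 5 and 1 in dabrafenib. These counts were higher in A375-BIR in DMSO, the opposite side from MIR148A, and were too low to compare further. MIR301A and MIR301B, which carry the shifted letters too, had at most 7 and 2 counts in a library. miR-130a also stands on the study's list.

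**Figure D5:**
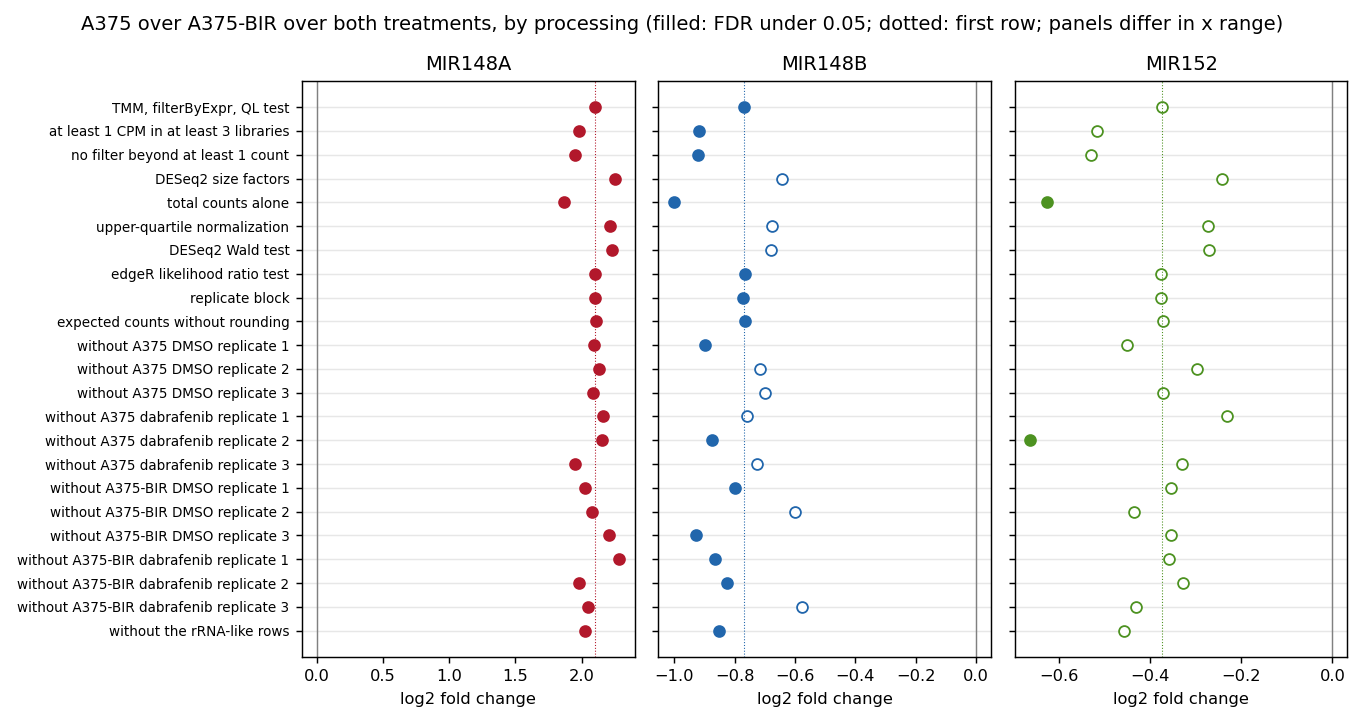
Log2 fold change of A375 over A375-BIR over both treatments for each member, under each processing and without each library in turn. Filled points have an FDR under 0.05, and the panels differ in the range of the x axis. MIR148A passes under every setting, with values from 1.86 to 2.29, MIR148B loses the call in 9 of the 22 other settings and MIR152 gains it in 2.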

How the data were processed

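Small-RNAseq libraries (Lexogen kit) were sequenced by the authors, who trimmed reads, filtered out contaminants and deposited RSEM 1.2.25 expected counts per miRNA precursor (hg38), not normalized and not always whole. Libraries were grouped by their labels, which call them biological replicates. Of 1881 rows, 1879 matched a GENCODE v44 gene. Expected counts were rounded and fitted with edgeR 4.0.16 in R 4.3.3: filterByExpr over the 4 groups (175 precursors kept), TMM, a mean per line and treatment, quasi-likelihood tests, and p adjusted after Benjamini-Hochberg over all tested precursors (threshold 0.05). The biological coefficient of variation was 21.6%. Log2 CPM for the 12 exact permutation tests (6 with TMM, 6 with total counts) and for likeness used a prior count of 2. Alternatives were other filters, scalings and tests (DESeq2 1.42.0), only the compared libraries, a replicate block, unrounded counts and each library left out; the fit without rRNA-like rows was chosen after seeing the data. The script was tested on simulated data.

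Members and lists were chosen with earlier results of these data known. Other miRNAs given with values are those with at least 10 counts in some library on the lists of MITF and DNA methyltransferase repressors (the rest are counted and listed), the 3 precursors most like each member, and markers of the melanocyte lineage and of other cell types. MIR130B, MIR301A and MIR301B were chosen for their sequence, and MIR130A for its name, after the files were seen. As a pairing check, deviations from the group mean were correlated between equal replicate numbers. A375 and A375-BIR, both in DMSO, gave 0.105, 0.219 and 0.303, and no other pair of groups was over 0.1 throughout; the labels do not say what the number marks. With the replicate number as a block no call of a member changed, and in DMSO the log2 fold changes were 2.13, -0.93 and -0.34 for MIR148A, MIR148B and MIR152. Library pairs of a group differed by more than sampling noise.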

Additional observations from a re-analysis of the deposited data

How the results depend on the processing

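The up-regulation of MIR148A in A375 kept its direction and its call under each alternative tried, over both treatments (1.86 to 2.29), in DMSO (2.03 to 2.39) and in dabrafenib (1.63 to 2.46). Of 408 refitted values of the members over the 6 comparisons, 352 kept their direction and their side of the threshold. MIR148B lost its call over both treatments with DESeq2's size factors (-0.64), upper-quartile scaling (-0.68) and DESeq2's test (-0.68), and in DMSO with the same settings (-0.77, -0.71 and -0.80) and with only the libraries compared (-0.96). With each library left out it ran from -0.93 to -0.58 over both treatments and from -1.25 to -0.62 in DMSO. With total counts MIR152 gained a call over both treatments (-0.63) and in dabrafenib (-0.91), and MIR148B in dabrafenib (-1.06). In the exact test, total counts gave -0.89 for MIR148B and -0.62 for MIR152, each with p = 0.015 unadjusted. With libraries left out MIR152 ran from -0.66 to -0.23 over both treatments and from -0.99 to -0.13 in dabrafenib, and from -0.49 to -0.18 in DMSO. MIR148B ran from -0.79 to -0.20 in dabrafenib.

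Values for dabrafenib in A375, none of them called, turned negative for MIR148A, MIR148B and MIR152 with a filter of 1 CPM (-0.026, -0.33 and -0.083), no filter (-0.012, -0.31 and -0.059), total counts (-0.11, -0.41 and -0.17) and upper-quartile scaling (-0.012, -0.30 and -0.062). For MIR148B they also did with DESeq2's size factors (-0.12), DESeq2's test (-0.13), only the libraries compared (-0.095) and without rRNA-like rows (-0.036). With libraries left out the ranges in A375 were 0.072 to 0.55 for MIR148A, -0.11 to 0.36 for MIR148B and -0.23 to 0.69 for MIR152. In A375-BIR they were 0.027 to 0.65, -0.66 to 0.058 and 0.30 to 0.60. With total counts the difference in response was -0.47 for MIR148A, -0.12 for MIR148B and -0.57 for MIR152, and with libraries left out that of MIR148A ran from -0.32 to 0.35, that of MIR148B from 0.044 to 0.76 and that of MIR152 from -0.66 to 0.20. Measured from the median of all tested precursors, which moved from 0.17 to -0.30 with total counts, the difference in response of MIR148A was -0.19 with TMM and -0.18 with total counts. This near equality is built into the measure. The split of the 44 calls for dabrafenib in A375, 32 higher and 12 lower, became 23 and 23 with DESeq2's size factors, 18 and 44 with total counts and 20 and 33 with upper-quartile scaling. Where total counts or another scaling moved a value, the median of all tested precursors moved with it, since a scaling moves all of them nearly alike. Why the scalings differ was not tested.

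The 36 calls for dabrafenib in A375-BIR became 19 with only the libraries compared and 20 to 46 with libraries left out, and the 6 for the difference in response became 2 without rRNA-like rows and 3 to 6 with libraries left out. The block by replicate number changed no call of a member, and moved the calls for dabrafenib from 44 to 34 in A375 and from 36 to 26 in A375-BIR. Divided by precursor length, the family shares in A375 in DMSO were 54.9%, 26.5% and 18.7% for MIR148A, MIR148B and MIR152.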
